A study of Mus musculus with 6 samples.

Results

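The astrocyte marker genes Gja1, Aqp4, Gfap, S100b, Aldoc, Glul, Sparcl1, Apoe and Clu were followed in the mouse suprachiasmatic nucleus (SCN), the hypothalamic circadian clock, directly after a light pulse. The 9 genes were taken by name as widely used markers of astrocytes. The array carried 22 probe sets (groups of short oligonucleotides that read 1 transcript) for them, among 22626 probe sets in all, and 20 of the 22 were among the 10340 probe sets whose signal was high enough to be kept for testing. Each of the 22 was matched to 1 gene symbol, and the genes on the array with 1 symbol numbered 12393, of which 6739 had a kept probe set.

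Adult male C57BL/6 mice, 2 to 4 months old, were kept in a 14:10 light/dark cycle. The light pulse group was given light of 2400 lux for 30 minutes starting 1 hour after lights off, and the sham light pulse group was handled at the same time in darkness, with tissue taken 1.5 hours after lights off in both. The SCN was lifted from stained sections of 12 µm by laser capture, 6 sections a mouse, and 3 mice were pooled on each array, so that a pool held 18 sections. Each group had 3 arrays, RNA was copied from 1 ng by repeated linear amplification, and the sources used here do not say whether each mouse entered only 1 pool. The p-values below therefore refer to variation among these pools.

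Astrocytes are glial cells that clear glutamate and potassium from around synapses, supply neurons with metabolites, couple to each other through gap junctions and cover blood vessels with their endfeet. In the SCN they surround neurons that receive glutamate from retinal terminals, and they carry a circadian clock of their own. Because the captured tissue holds every cell type of the nucleus, fewer astrocytes and less RNA per astrocyte cannot be told apart in these signals.

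The light pulse arrays carried a light response. Fos, an immediate-early transcription factor, had signals of 14254, 10399.9 and 14457 on the light pulse arrays, against 668, 298 and 370.0 on the sham light pulse arrays, a log2 fold change of 4.94 (SE 0.31, limma adjusted p = 3.35e-06). Egr1, another immediate-early factor, had 9942, 13886 and 17168 on the light pulse arrays, against 376, 369 and 733 on the sham arrays (log2 fold change 4.84, SE 0.32, limma adjusted p = 3.35e-06). Over the kept probe sets the arrays were alike, with a correlation of log2 signal between 0.893 and 0.935 within groups and between 0.886 and 0.934 between groups. The choroid plexus transcript Ttr stood apart on 1 array: it was at 110323 on light pulse array 3 and between 63.0 and 296 on the other 5 arrays.

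None of the astrocyte marker genes was called. With limma, 0 of the 20 kept probe sets had an adjusted p under 0.05, where 7 of 10340 probe sets (0.0677%) and 7 of 6739 genes (0.104%) passed, and the adjusted p of the 9 genes lay between 0.960 and 0.992. At an unadjusted p under 0.05 there was 1 probe set, that of Sparcl1, against 4.31% of all kept probe sets and 4.14% of all kept genes. Cyber-T, the Bayesian test of the study's methods, also called 0 of the 20, against 5 of all kept probe sets (0.0484%), and had 2 of the 20 at an unadjusted p under 0.05, those of Sparcl1 and a dim one of Gja1, against 4.27% of all kept probe sets. The 3 light pulse arrays all lay below the 3 sham arrays for 1 probe set and 1 gene, again Sparcl1 (4.46% of kept probe sets and 4.38% of kept genes), and all above for 0 (5.62% of kept probe sets and 5.74% of kept genes).

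The 9 genes showed small differences in both directions. The brightest probe set of a gene stands for it here, and by it 6 genes were above 0 and 3 below, with a median log2 fold change of 0.06 over the 9 genes and 0.00 over all kept genes. The median size of the difference, without its sign, was 0.20 over the 9 genes and 0.26 over all kept genes. For 5 of the 9 genes, Gja1, S100b, Aldoc, Glul and Clu, the 95% interval of the difference lay inside a 2-fold change either way, which held for 45.3% of all kept genes. Aqp4, Sparcl1 and Apoe had intervals inside 4-fold, and that of Gfap reached beyond it.

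**Figure D1:**
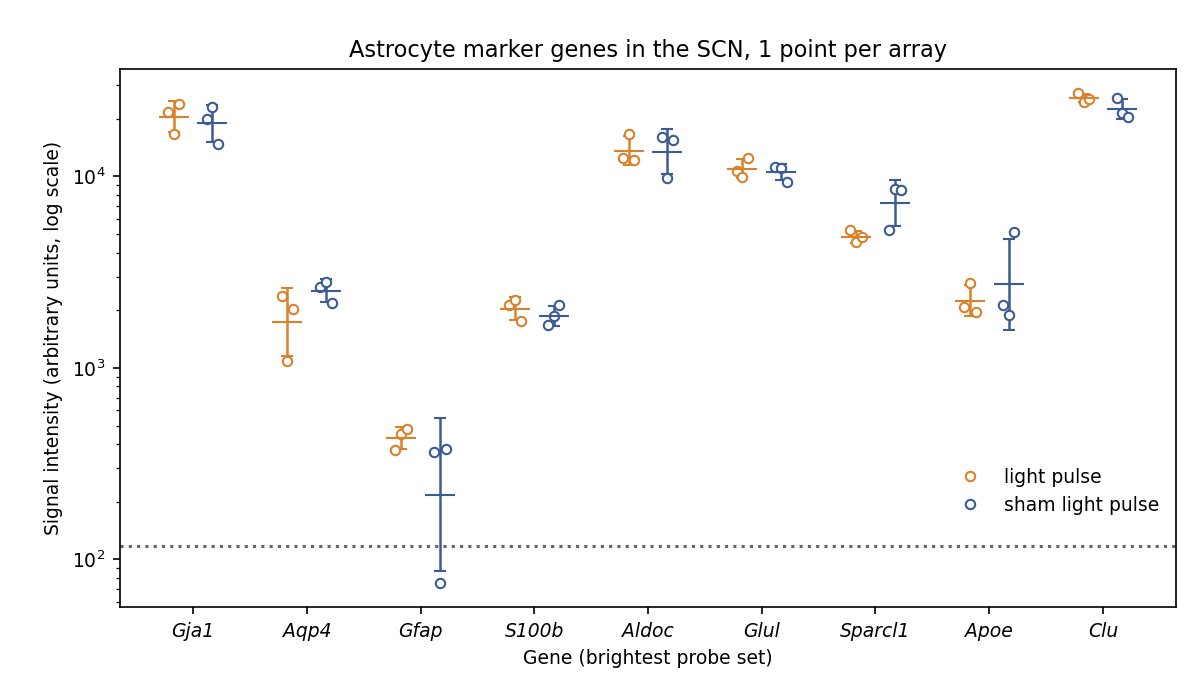
Signal intensity of the 9 astrocyte marker genes (brightest probe set, arbitrary units, log scale) on the 3 light pulse arrays (orange, left of each pair) and the 3 sham light pulse arrays (blue, right). Open circles are single arrays in the order of replicate number, wide bars are geometric means with 1 SD of the log2 signal, and the dotted line is the lowest third-ranked signal kept, 118; the groups overlap for every gene but Sparcl1.

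The study asked which promoter elements light-induced genes carry, with the cAMP response element (CRE) and TATA elements searched in aligned mammalian promoters, so the promoters of the marker genes were read for these letters beside that of Fos, in a shorter window and without a test of conservation, and also for the E-box. RefSeq promoter windows of the build GRCm38.p6 were at hand for 6 of the 9 genes (Gja1, Gfap, S100b, Aldoc, Glul and Apoe), with 9 windows in all since some genes have more than 1 start. The 250 bases before each start were searched on both strands for the CRE TGACGTCA, its core TGACG, which lies inside the full element, the TATA element TATAA and the E-box CACGTG. No window of the 9 held the full CRE (1.55% of 32851 mouse windows did) and none held the E-box (6.02%), 1 held the core (17.8%) and 1, a window of Apoe, held the TATA element (22.8%). The window of Gja1 held the core at 201 and 159 bases before the start, on opposite strands, with no TATA element. The window of Fos held the core at 129 and 66 bases before the start and a TATA element at 33 bases, and neither the full CRE nor the E-box. By these exact letters the lack of a full CRE does not set the marker genes apart from Fos. The study identified its CREs with matrices instead of exact letters. Shown are Gja1, the marker gene with cores, Gfap, the namesake filament gene with no match, and Fos, the called gene. Capitals mark the cores (read as CGTCA on the other strand) and the TATA element. The Gja1 window is chr10:56377050-56377299 on the plus strand, the Gfap window chr11:102897201-102897450 on the minus strand and the Fos window chr12:85473640-85473889 on the plus strand, each printed 5′ to 3′ in the gene's direction and ending at the base before the start.
Gja1: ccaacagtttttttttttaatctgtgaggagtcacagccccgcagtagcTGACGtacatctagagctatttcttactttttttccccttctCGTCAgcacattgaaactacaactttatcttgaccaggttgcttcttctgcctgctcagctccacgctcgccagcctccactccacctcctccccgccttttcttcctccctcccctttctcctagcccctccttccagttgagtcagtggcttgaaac
Gfap: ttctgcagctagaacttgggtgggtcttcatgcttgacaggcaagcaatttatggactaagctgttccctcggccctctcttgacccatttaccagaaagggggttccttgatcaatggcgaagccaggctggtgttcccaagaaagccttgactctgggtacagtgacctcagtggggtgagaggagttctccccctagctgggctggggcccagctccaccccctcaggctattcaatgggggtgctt
Fos: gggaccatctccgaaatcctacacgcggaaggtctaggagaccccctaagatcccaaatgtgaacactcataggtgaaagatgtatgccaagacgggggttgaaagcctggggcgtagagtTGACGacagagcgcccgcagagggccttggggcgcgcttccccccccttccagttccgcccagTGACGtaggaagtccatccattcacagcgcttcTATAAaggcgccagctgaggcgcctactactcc
A match of letters is a description of the sequence and not of binding.

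Gja1 encodes connexin 43, the main gap junction protein of astrocytes. Its brightest probe set had 21751, 16642 and 23829 on the light pulse arrays, against 20004, 22884 and 14750.2 on the sham arrays. The groups overlapped, with the lowest value on sham array 3 and the highest on light pulse array 3, and the log2 fold change was 0.12 (SE 0.21, 95% interval -0.34 to 0.57). Of the other 5 probe sets of Gja1, 4 were kept, with log2 fold changes of 0.03, -0.16, -0.26 and 1.19. The one at 1.19 was dim, at 773, 264 and 614 on the light pulse arrays, against 74.5, 320.1 and 439 on the sham arrays, and its interval, -0.07 to 2.46, held 0. Over the 6 arrays the 3 brighter ones followed the brightest (Pearson r of 0.878, 0.651 and 0.771), and the dim one did not (r = 0.165). The sixth probe set, not kept, ran from 6.0 to 83.3.

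Aqp4, the water channel of astrocyte endfeet, had 2369.8, 1089.8 and 2039.7 on the light pulse arrays, against 2658, 2819 and 2174 on the sham arrays. Light pulse array 2 was well below the other 5 arrays, and light pulse array 1 lay above sham array 3. The log2 fold change was -0.54 (SE 0.31, 95% interval -1.21 to 0.12), and it was -0.21 without light pulse array 2. The second probe set of Aqp4 was not kept, with signals of 1.8 to 90.4.

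Gfap encodes the intermediate filament protein by which astrocytes are most often stained. It had 372, 453 and 478 on the light pulse arrays, against 366, 75.6 and 376 on the sham arrays. The low value of sham array 2 set most of the difference, since light pulse array 1 lay between sham arrays 1 and 3. The log2 fold change of 0.98 (SE 0.53, 95% interval -0.15 to 2.12) became 0.22 without sham array 2. The other Gfap probe set had the opposite sign, -0.40 (SE 0.66, 95% interval -1.82 to 1.01), with 247, 333 and 142 on the light pulse arrays, against 527, 78.7 and 651 on the sham arrays. Sham array 2 was lowest on both probe sets.

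S100b, a calcium-binding protein of astrocytes, had 2132, 2264 and 1747 on the light pulse arrays, against 1666, 1856 and 2122 on the sham arrays. The groups were interleaved, with a log2 fold change of 0.12 (SE 0.25, 95% interval -0.42 to 0.67). Its dimmer probe set gave -0.05 (SE 0.56, 95% interval -1.26 to 1.15), with 66.9 on light pulse array 3 and between 163 and 277 on the other arrays.

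The enzymes Aldoc and Glul were closest to 0. Aldoc, the brain form of aldolase in glycolysis, had 12454, 16662 and 12220.3 on the light pulse arrays, against 16035, 9814 and 15409.7 on the sham arrays. Light pulse array 2 and sham array 2 were its extremes, and the log2 fold change was 0.02 (SE 0.23, 95% interval -0.47 to 0.52) and 0.02 again on its dimmer probe set. Glul, glutamine synthetase, which turns the glutamate that astrocytes take up into glutamine, had 10659, 9936 and 12406 on the light pulse arrays, against 11184, 10992 and 9391 on the sham arrays. Its groups overlapped over a narrow range, the highest signal being 1.32 times the lowest, and its log2 fold change was 0.06 (SE 0.20, 95% interval -0.36 to 0.48) and 0.11 on its dimmer probe set. The probe set pairs of these 2 genes ran in opposite ways over the 6 arrays (r = -0.738 for Aldoc and -0.515 for Glul).

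Sparcl1 encodes hevin, a matrix protein that astrocytes secrete and that takes part in synapse formation, and endothelial cells also make it. It had 5219, 4529.7 and 4798 on the light pulse arrays, against 5260.4, 8541 and 8462 on the sham arrays. The groups did not overlap, but sham array 1 lay just above light pulse array 1, and the difference rested on sham arrays 2 and 3. The log2 fold change was -0.58 (SE 0.24, 95% interval -1.10 to -0.06), 0.668 of the sham level, with a limma p of 0.0306 before adjustment and an adjusted p of 0.960. After quantile normalization the groups overlapped, with 5186 on light pulse array 1, against 5133 on sham array 1, while the log2 fold change was -0.61. It was -0.81 without sham array 1, -0.46 without sham array 2 and -0.47 without sham array 3, and limma's adjusted p was at least 0.889 in each of these fits.

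The kept markers of blood vessels were below 0 as well. All 6 kept genes of 9 measured endothelial and pericyte markers were below 0, with a median of -0.39, and their summed signal was 4217 to 5053 on the light pulse arrays, against 5356 to 7627 on the sham arrays. The sum gives most weight to the brightest genes, Rgs5 and Slco1a4, with Rgs5 at 2974 on sham array 1. How often sums of other genes part the groups in this way was not calculated. Flt1, a receptor for vascular endothelial growth factor, had a log2 fold change of -1.55 and Rgs5, a pericyte marker, -0.46. For both, all light pulse arrays lay below all sham arrays, against 4.38% of all kept genes. The Flt1 signal of 72.6 on 1 light pulse array was below the kept level, which makes the fold of Flt1 uncertain. Pecam1, Cdh5 and Tek were below the kept level and went both ways (0.81, -1.68 and 0.17). None of the 6 was called by limma (adjusted p of at least 0.960), and 1, Flt1, had an unadjusted p under 0.05, against 4.14% of all kept genes. Their summed signal was highest on sham array 1, the sham array on which Sparcl1 was lowest, and their part in the Sparcl1 values was not tested.

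Apoe, the lipid carrier of the brain, made by astrocytes and microglia, had 2081, 2783 and 1957 on the light pulse arrays, against 2123, 1879 and 5096 on the sham arrays. Sham array 3 was far above the other 5 arrays. The log2 fold change of -0.28 (SE 0.35, 95% interval -1.03 to 0.47) was 0.17 without it. The 5 kept microglia markers of 8 measured summed to 7623 to 10557 on the light pulse arrays, against 9130.1 to 11709.5 on the sham arrays. Their sum was 9463 on sham array 3. By gene, 2 of the 5 were highest on sham array 3, 2 on sham array 2 and 1 on light pulse array 2. The defining microglia markers Aif1 and Cx3cr1 were below the kept level. The part of microglia in the Apoe values was not tested.

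Clu, clusterin, a secreted chaperone, had the smallest spread of the 9 genes when each was read by its brightest probe set. Its SD of log2 signal around the group means was 0.13 there, and 0.29, 0.27 and 0.58 on its other probe sets. Its brightest probe set had 27081, 24512 and 25489 on the light pulse arrays, against 25709, 21455 and 20393 on the sham arrays. Sham array 1 lay among the light pulse arrays, and the log2 fold change was 0.20 (SE 0.17, 95% interval -0.17 to 0.56). Of the other 3 probe sets, 2 gave 0.24 and 0.10, and the dimmest gave -0.30 (95% interval -1.05 to 0.44). Clu and Apoe are also made by choroid plexus. On light pulse array 3, where Ttr was high, Clu was at 25489 and Apoe at 1957. The other choroid plexus genes measured, Folr1, Kl and Sostdc1, were below the kept level. Each was highest on light pulse array 3, at 147, 72.7 and 126. The part of choroid plexus RNA in the Clu and Apoe values was not tested.

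**Figure D2:**
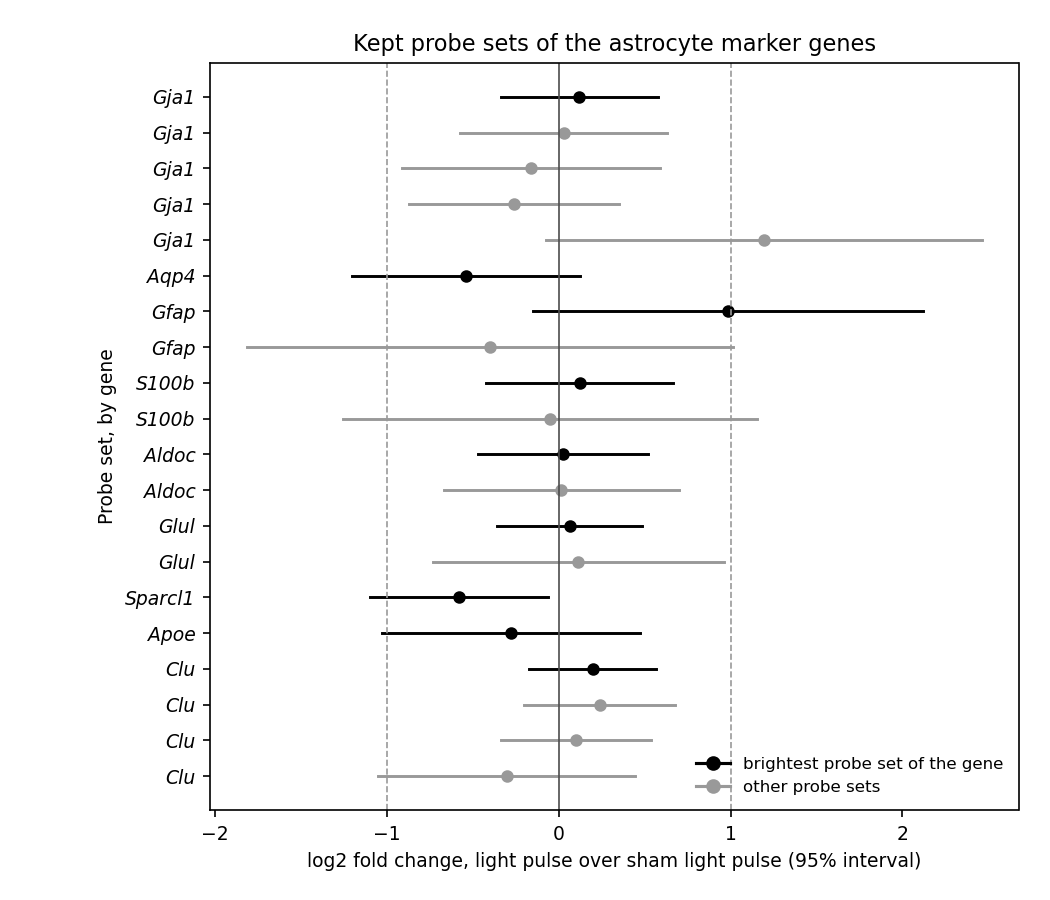
Log2 fold change of light pulse over sham light pulse with its 95% interval from limma (horizontal axis) for the 20 kept probe sets of the 9 genes (vertical axis), the brightest of each gene in black and the others in grey, with dashed lines at a 2-fold change either way. The interval of 12 probe sets lies between the dashed lines, and only that of Sparcl1, -1.10 to -0.06, leaves out 0.

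By their brightest probe sets, the marker genes did not vary together across the arrays. Over the 6 arrays the log2 signals of Gja1 and Glul ran together (Pearson r = 0.897), as did those of Gfap and Aldoc (r = 0.739), while Gja1 and Apoe (r = -0.926), Sparcl1 and Clu (r = -0.883) and Glul and Apoe (r = -0.821) ran in opposite ways. The 6 points of each pair share their libraries and hold both groups. The values also describe probe sets rather than genes. The probe set pairs of Aldoc and Glul ran in opposite ways (r = -0.738 and -0.515), while those of Gfap (0.648) and S100b (0.601) ran together. Each gene set against the mean of the other 8 gave a median r of -0.196, with 2 of 9 above 0, whereas the 43 other astrocyte genes described below gave a median r of 0.127 against the mean of the 9 (27 above 0) and the 6730 remaining genes 0.0286 (3499 above 0). Where these means include Gfap and Apoe, Gfap on sham array 2 (-2.02 from its own mean) and Apoe on sham array 3 (1.04) weigh heavily. No array was high or low for all 9 genes. Sham array 2 was lowest for Gfap, Aldoc and Apoe and highest for Aqp4 and Sparcl1, and sham array 3 was lowest for Gja1, Glul and Clu and highest for Apoe. Light pulse array 3 was highest for Gja1, Gfap and Glul, and light pulse array 2 was highest for S100b and Aldoc and lowest for Aqp4 and Sparcl1. The summed signal of the 9 genes was 78871 to 84965 on the light pulse arrays, against 78174 to 85004 on the sham arrays.

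**Figure D3:**
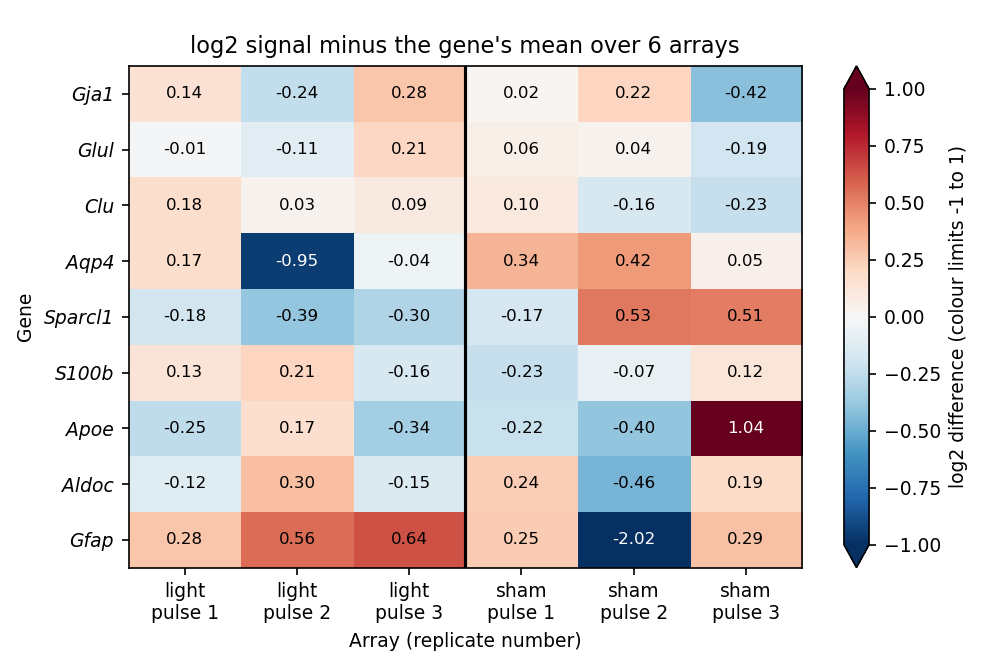
Log2 signal of each of the 9 genes (rows) on each array (columns, light pulse arrays left of the line and sham light pulse arrays right), as the difference from the gene's mean over the 6 arrays, printed in each cell and coloured from -1 (blue) to 1 (red). No column is of 1 colour throughout; the largest departures are -2.02 for Gfap on sham array 2, 1.04 for Apoe on sham array 3 and -0.95 for Aqp4 on light pulse array 2.

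The genes whose profile over the 6 arrays was most like the mean of the 9 were Hdgf (r = 0.990), Ttc1 (0.977), Lsm4 (0.977), Pdxp (0.973) and Snhg1 (0.972). The mean profile was lowest on sham array 2, at -0.21 on the log2 scale, and highest on sham array 3, at 0.15, and Gfap and Apoe carried these extremes. Without Gfap the mean of the other 8 genes on sham array 2 was 0.01, and without Apoe that on sham array 3 was 0.04. The 5 genes are therefore like a profile that Gfap and Apoe set on those arrays, and not like the 9 genes in common. Hdgf, for example, had 1045, 887 and 946 on the light pulse arrays, against 1044, 450.4 and 1541 on the sham arrays. None of the 5 is a marker of astrocytes in the lists used here.

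The spread between pools of the same group was like that of other genes of similar brightness. The SD of log2 signal around the group means had a median of 0.42 over the 20 kept probe sets and 0.43 over all kept probe sets. By gene, each read by its brightest probe set, it ran between 0.13 for Clu and 0.95 for Gfap. The median was 0.30 over the 9 genes and 0.41 over all kept genes. Over genes with a geometric mean signal above 1000, the median was 0.30 for 8 of the 9 genes and 0.30 for 2134 genes.

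Other genes of astrocytes were also not called. Of 60 further genes known from astrocytes, 51 were on the array and 43 were kept, and limma called 0, with 2 at an unadjusted p under 0.05 (Acsl6 and Fads2), against 4.14% of all kept genes. Of the 43, 17 were above 0 and 26 below, with a median log2 fold change of -0.15, against 0.00 over all kept genes. All light pulse arrays were below all sham arrays for 6 genes, against 4.38% of all kept genes, and above for 1, against 5.74%. The summed signal of the 43 was 81071 to 86060 on the light pulse arrays, against 87289 to 91895 on the sham arrays. Such a sum gives most weight to the brightest genes, among them Cst3 at 11071 to 18095. How often sums of other genes part the groups was not calculated.

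By role, the 6 kept transporters and pumps were all below 0 (median -0.29), among them the potassium channel Kcnj10 (-0.32) and the glutamate transporter Slc1a3 (-0.23). The urea transporter Slc14a1 had 131, 121 and 145 on the light pulse arrays, against 208, 170.3 and 155 on the sham arrays (log2 fold change -0.42, SE 0.47). Of the 10 junction and membrane proteins 7 were below 0, with Gpm6b at -0.14 and Ttyh1 at -0.30 as the brightest. The lipid phosphatase Plpp3 and the proteoglycan Ncan had all light pulse arrays below all sham arrays (-0.34, SE 0.26, and -1.04, SE 0.56). Ncan was dim, at 158, 95.9 and 55.0 on the light pulse arrays, against 161, 232 and 196 on the sham arrays. Its third-ranked signal, 161, by which it was kept, was that of a sham array. Its light pulse signals of 95.9 and 55.0 were below the kept level, which makes its fold uncertain.

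Of the 10 enzymes 6 were below 0. Acsl6, which activates long-chain fatty acids, had 1431, 1017 and 1703 on the light pulse arrays, against 2308, 2328 and 2758 on the sham arrays. The groups did not overlap, and the difference had the smallest unadjusted p of the 43 genes, 0.0074 (log2 fold change -0.86, SE 0.27, 95% interval -1.45 to -0.27, limma adjusted p = 0.960). Fads2, a fatty acid desaturase, was above 0, with 224, 268 and 271 on the light pulse arrays, against 163, 91.2 and 141 on the sham arrays (0.99, SE 0.44). Its sham signal of 91.2 was below the kept level, which makes its fold uncertain. The retinaldehyde dehydrogenase Aldh1a1 was at -0.57 (SE 0.30) with no overlap of the groups, and Ndrg2, which with Acsl6 was the brightest of the enzymes, was at 0.30 (SE 0.36). The receptors gave a median of -0.06 over 4 genes, with Ntsr2 at -0.10 and Fgfr3 at -0.02. The 7 secreted proteins had a median of -0.06, with Cst3 at -0.06, Htra1 at 0.05 and Timp3, an inhibitor of metalloproteinases, at -0.75 (SE 0.36) with no overlap. The 6 transcription factor and cytoskeleton genes lay between 0.04 and 0.12, with Id4 at 0.05 and Sox2 at 0.10.

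Genes that rise in reactive astrocytes were mostly too dim to test. Of 15 listed, 14 were on the array and 3 were kept, and limma called 0 of these. Serpina3n (1.77, SE 0.96) and Hspb1 (0.33, SE 0.51) had overlapping groups. Serpina3n was dim, at 182, 186 and 120.5 on the light pulse arrays, against 80.3, 9.8 and 131 on the sham arrays. Sham arrays 1 and 2 were thus below the kept level of 118 for Serpina3n, which makes its fold uncertain. The copper-binding Cp had 10.6, 68.4 and 109.8 on the light pulse arrays, against 185, 214 and 424 on the sham arrays. Its signals on the light pulse arrays were all below 118, the lowest third-ranked signal kept. It was thus kept through the sham arrays alone, and no fold or p-value is given for it. Among genes of both lists that were not kept, the groups did not overlap for Gldc, Osmr and Emp1 (light pulse below) or for Cd44 (light pulse above). Their signals were low, with Emp1 at 3.3 to 6.4 on the light pulse arrays and Cd44 at 5.0 to 33.2 on the sham arrays. The share of all unkept genes without overlap was not calculated, so nothing is read from these 4.

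**Figure D4:**
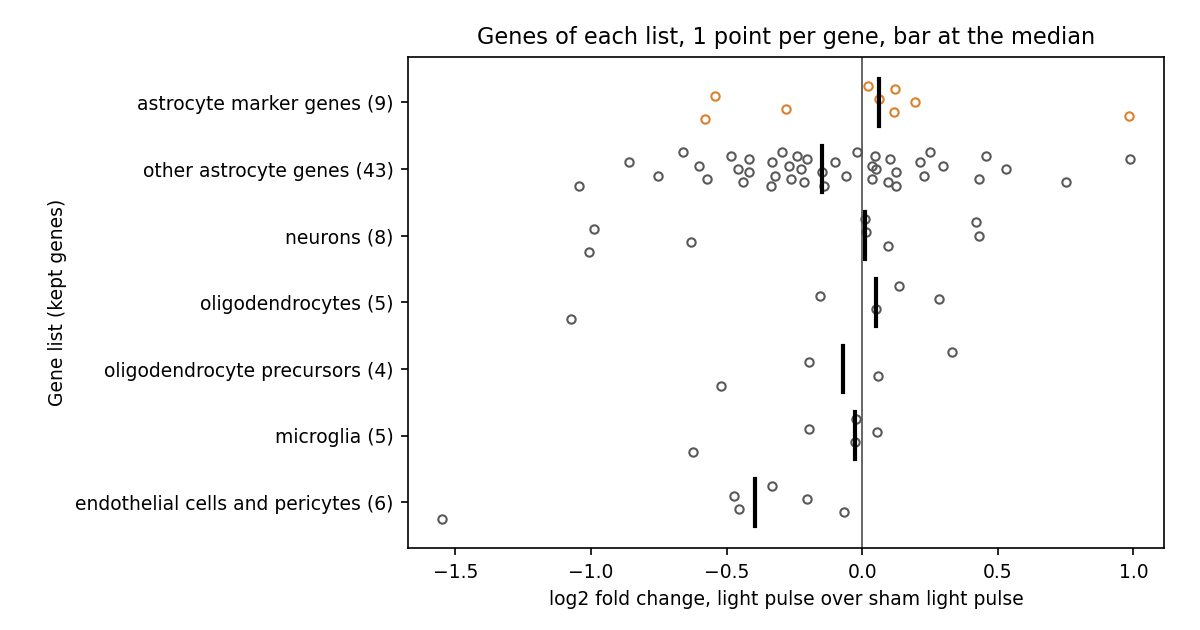
Log2 fold change of light pulse over sham light pulse (horizontal axis) for each kept gene of the astrocyte marker genes (orange), the other astrocyte genes and the marker lists of other cell types (grey), 1 point per gene with a bar at the list's median, points spread vertically for sight only. The medians are 0.06 for the 9 astrocyte marker genes, -0.15 for the 43 other astrocyte genes and -0.39 for the 6 endothelial and pericyte markers.

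Markers of the other cells that the captured tissue could hold are given beside these lists. Of 8 kept neuronal genes 5 were above 0 and 3 below (median 0.01). Vip, the neuropeptide of the SCN core, was at 0.43 with all light pulse arrays above, against 5.74% of all kept genes. Snap25 and Nefl were at -0.63 and -1.01 with all light pulse arrays below, against 4.38% of all kept genes. The 5 kept oligodendrocyte genes of 6 measured summed to 36689 to 51231 on the light pulse arrays, against 28196 to 53191 on the sham arrays. Limma called none of the neuronal or oligodendrocyte genes. At an unadjusted p under 0.05 there were 3 neuronal genes and 0 oligodendrocyte genes, against 4.14% of all kept genes. The 4 kept genes of oligodendrocyte precursors had a median of -0.07, and limma called none (0 at an unadjusted p under 0.05). No tanycyte marker of 4 measured and 1 ependymal marker of 2 measured was kept. The part of these cells in the astrocyte signals was not tested.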

How the data were processed

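RNA from the laser-captured SCN of 3 light pulse and 3 sham light pulse pools was hybridized to Affymetrix 430A 2.0 arrays. The deposited intensity of each of the 22626 probe sets was calculated by the authors with MAS5 on a linear scale and scaled per array. The mean signal with the outer 2% trimmed was 492 to 496 on the 6 arrays. Genes were named by a platform annotation table, and 691 probe sets with several symbols and 1555 with none were left unnamed.

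The log2 of the signals was taken with no offset and fitted with limma 3.58.1 in R 4.3.3 (lmFit, eBayes with intensity trend, two-sided, Benjamini-Hochberg over 10340 probe sets, threshold 0.05). Kept probe sets were the share of 0.457 with the highest third-ranked signal, which stands in for the study's present calls. Probe sets below it have values from a fit of all 22626. The number of arrays and the spread between pools limit the precision. Steps were tested on simulated data.

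The marker genes, gene lists and tests were chosen with earlier results of these data known. Named are all 9 genes with every probe set. Of the other astrocyte genes and the reactive genes, those called, those whose groups did not overlap and the 2 brightest per role are named. Also named are the 5 genes most like the mean profile, markers of other cells that stood apart, Fos and Egr1. Alternatives were other filters, scalings, an offset of 50, no trend, Cyber-T written anew (window 101, prior weight 10), the replicate block, other choices of probe set, and leaving out each array.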

Additional observations from a re-analysis of the deposited data

How the results depend on the processing

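No marker gene and no other astrocyte gene was called under any alternative run, and of 140 values of single marker genes 129 kept their direction and 11 did not. The 129 include values that could not change. Other filters, no trend, Cyber-T and the replicate block left the fold change of each gene tested as it was. The common 75th percentile moved all genes by the same small amount, Gja1 from 0.118 to 0.120. The median log2 fold change of the 9 genes, 0.06, was -0.041 after quantile normalization and -0.12 with only the probe sets whose ID marks no shared target, where Glul, Apoe and Clu have none, and 0.01 to 0.12 leaving out 1 array. After quantile normalization Gja1 was at -0.041, Aldoc at -0.085, Glul at -0.040 and Clu at -0.023, and Gja1 was at -0.26 by its brightest unshared probe set. Leaving out 1 array moved Gja1 between -0.061 and 0.27, Aldoc between -0.21 and 0.15, Glul between -0.028 and 0.13 and Apoe between -0.55 and 0.17. The cause was not tested. Gfap had no value under the stricter filter of 5000 probe sets. With a common 75th percentile the groups of Gfap no longer overlapped (light pulse higher), and those of Sparcl1 still did not. The replicate numbers did not pair the arrays (same-number correlations of deviations of 0.0958, -0.192 and -0.129). A fit with the replicate block called 0 marker probe sets and 6 probe sets in all, against 7 without it, with a median of 0.06 over the 9 genes, a spread of 0.49 and an unadjusted limma p of 0.0536 for Sparcl1.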
